A study of Mus musculus with 4 samples.

Results

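The TH17 identity genes described here are *Il17a*, *Il17f*, *Il22*, *Rora*, *Ahr*, *Il23r*, *Il1r1*, *Il17re* and *Ccr6*. They were taken by symbol from the deposited expression table, which lists 13265 genes in 5080 cells, and all 9 were found and passed the minimum of 200 corrected unique molecular identifiers (UMIs) over all cells. Small intestines of mice aged 7 to 8 months gave the sorted YFP+CD4+ T cells, and each sample is a pool of mice. All mice carried *Il17a*-cre and a *Rosa26*-stop fl/fl-yfp reporter, so that YFP marks cells that have expressed *Il17a*, whether or not they still do. In TGFβR-KO mice the Cre acts on floxed alleles of *Tgfbr2*, in TGFβR-CA mice it removes a floxed stop so that a constitutively active *Tgfbr1* is made, and TGFβR-WT mice carry neither. The Cre sits in the *Il17a* locus itself. The paper uses mice with the Cre on both copies as its *Il17a*-deficient animals, in a separate experiment. It does not state the number of copies for the sequenced mice. Any part of this insertion in the *Il17a* level was not tested.

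TH17 cells are CD4 T cells that guard mucosal surfaces. They depend on nuclear receptors that include RORα, are sustained by IL-23 and IL-1, and release IL-17A, IL-17F and IL-22, which act on epithelial cells to raise antimicrobial defence and repair. In the intestine TH17 cells are also known to change, losing IL-17 and gaining properties of TH1, TFH or regulatory cells, and the reporter was used in the study to follow such cells.

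The 4 samples comprise 2 of TGFβR-WT and 1 each of TGFβR-KO and TGFβR-CA. The names of the cells assign 2975 of them to TGFβR-KO, 1098 to TGFβR-CA and 1007 to TGFβR-WT. The TGFβR-WT cells carry 2 name suffixes, on 709 and 298 cells, here called the larger and the smaller set, and nothing in the table ties a suffix to a TGFβR-WT sample. The level of a gene in a group of cells is its summed corrected UMIs in every 10000 of that group, and median totals per cell were 3794 in TGFβR-KO, 3918 in TGFβR-CA, 3440 in the larger set and 3984.5 in the smaller set. With 1 sample of TGFβR-KO and TGFβR-CA, no difference between conditions could be tested. A gene is called higher or lower where its level was at least 1.5 times above or below pooled TGFβR-WT and both sets. Where either set had under 20 cells, only the pooled TGFβR-WT cells were used. Intervals of shares are exact (Clopper-Pearson, 95%) and cover counting error only.

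Some features of the libraries bear on what follows. *Tgfbr1* was at 0.792 in cells labelled TGFβR-CA, 0.219 in TGFβR-KO, 0.367 in the larger and 2.79 in the smaller TGFβR-WT set, which goes against the TGFβR-CA label relative to the smaller set, although a 3′ tag need not come from the inserted form. *Tgfbr2* was at 1.48 in TGFβR-KO and at 1.72 to 1.78 elsewhere, and a 3′ tag outside the deleted part does not check the deletion. Conditions are therefore named as the cells are labelled throughout. TGFβR-KO shared 14 cell barcodes with the larger TGFβR-WT set, and leaving out all shared barcodes changed no call over all cells. Of 6 markers of γδ T cells, which the authors removed, 5 are in the table and all were at 0 except *Trdc*, found in 14 TGFβR-KO, 4 TGFβR-CA and 9 TGFβR-WT cells.

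Most of these genes differed between the larger and the smaller TGFβR-WT set. *Il17a* was 4.43 times higher in the smaller than in the larger set, *Il17f* 2.01 times and *Il22* 1.67 times. *Ahr* was 2.32 times and *Il23r* 1.82 times higher in the larger set. Over all 7486 genes compared between the sets, 10.3% were at least 1.5 times higher in the smaller set and 11.8% at least 1.5 times lower. *Rora*, *Il1r1*, *Il17re* and *Ccr6* differed by less than 1.5 times. *Rora* and *Il23r* were higher in both TGFβR-KO and the larger set than in both TGFβR-CA and the smaller set, an order held by 19.4% of 7490 genes, and *Il17a* was lower in both, as were 21.7% of genes. The study processed TGFβR-KO and TGFβR-CA cells in separate batches, each with TGFβR-WT cells. No label ties a set to a batch. TGFβR-KO shared 14 barcodes with the larger set and 0 with the smaller, and TGFβR-CA shared 0 with either set. What this sharing says about batch was not tested. If the larger set was processed with TGFβR-KO, this order is also that of the batches. Batch and genotype then cannot be told apart against the pooled TGFβR-WT cells or between TGFβR-KO and TGFβR-CA. A ratio of TGFβR-KO to the larger set, or of TGFβR-CA to the smaller, would then lie within a batch. Which case holds was not tested.

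The cytokine genes are shown first with the windows around their start sites, because their transcripts turned up in the same cells and RORα is known to bind such regions. Each window runs from 250 bases before to 50 bases after the start in RefSeq (GRCm38.p6), written 5′ to 3′ on the gene's strand, and capitals mark the ROR half-site AGGTCA or its reverse complement TGACCT. The window of *Il17a* is chr1:20730655-20730954 on the plus strand, that of *Il17f* chr1:20784221-20784520 on the minus strand and that of *Il22* chr10:118204714-118205013 on the plus strand.
Il17a: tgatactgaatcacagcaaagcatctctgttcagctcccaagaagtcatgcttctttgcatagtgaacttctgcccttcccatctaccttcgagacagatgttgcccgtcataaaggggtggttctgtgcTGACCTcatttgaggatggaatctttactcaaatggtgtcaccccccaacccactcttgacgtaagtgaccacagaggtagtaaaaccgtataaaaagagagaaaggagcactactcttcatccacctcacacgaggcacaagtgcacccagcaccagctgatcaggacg
Il17f: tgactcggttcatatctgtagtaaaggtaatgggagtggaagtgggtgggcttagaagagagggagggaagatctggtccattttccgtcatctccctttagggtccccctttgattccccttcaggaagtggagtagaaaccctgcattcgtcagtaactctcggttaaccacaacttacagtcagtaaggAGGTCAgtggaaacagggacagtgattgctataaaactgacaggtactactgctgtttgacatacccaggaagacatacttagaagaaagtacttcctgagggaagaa
Il22: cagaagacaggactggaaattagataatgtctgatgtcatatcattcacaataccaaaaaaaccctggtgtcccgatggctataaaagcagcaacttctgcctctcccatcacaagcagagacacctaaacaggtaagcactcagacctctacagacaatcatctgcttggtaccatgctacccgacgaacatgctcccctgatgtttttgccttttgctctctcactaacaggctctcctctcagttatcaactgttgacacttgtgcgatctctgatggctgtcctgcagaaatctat
*Il17a* and *Il17f* each hold 1 ROR half-site, and the window of *Il22* holds none. Of 32851 windows of the same length, 16.3% hold this half-site. Windows were found for 8 of the 9 genes, with 2 starts each for *Il1r1* and *Ccr6*, and none for *Ahr*. The half-site is also in the window of *Il23r*, on the minus strand of chromosome 6 from 67491806 to 67492105, where it occurs at 2 places, and in 1 of the *Ccr6* windows. The windows of *Rora*, *Il1r1* and *Il17re* hold no half-site. The AHR core GCGTG, present in 32.4% of all windows, is in those of *Rora* and *Il1r1*. The STAT motif TTCNNNGAA (8.30% of windows) occurs in a *Ccr6* window and the AP-1 motif TGANTCA (7.81%) in that of *Il17a*, each searched on both strands. A match describes the letters of the window and not a bound site.

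*Il17a* and *Il17f* lie on chromosome 1 of GRCm38 with 42650 bases between them, from 20730905 to 20734496 and from 20777146 to 20790617. *Il22* lies on chromosome 10 from 118204942 to 118210047 and *Rora* on chromosome 9 from 68653786 to 69388246. *Ahr* lies on chromosome 12 from 35497974 to 35535038, *Il23r* on chromosome 6 from 67422932 to 67491855 and *Il17re* on the same chromosome from 113458484 to 113470758. *Il1r1* lies on chromosome 1 from 40225080 to 40317257 and *Ccr6* on chromosome 17 from 8236043 to 8257141. All are annotated as protein coding in GENCODE M21, and no exon of another gene overlaps theirs on the same strand. Antisense genes overlap exons of *Rora* (*Gm15511*) and *Ahr* (*Gm48236*).

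Over all cells, *Il22* and *Rora* were higher in TGFβR-KO than in TGFβR-WT, and no other of the 9 genes was called in either direction. Of 7490 genes, 2.94% were called higher and 5.45% lower by the same rule. In TGFβR-CA, *Rora* and *Il17re* were lower than in TGFβR-WT and none was higher, where 2.90% of 7488 genes were called lower and 1.23% higher. Both comparisons use the same TGFβR-WT cells. The median log2 ratio of the 9 genes was 0.38 in TGFβR-KO and -0.31 in TGFβR-CA, where the medians over all genes were -0.17 and -0.11. The plot of levels over all cells shows that the TGFβR-WT sets bracket TGFβR-KO or TGFβR-CA for several of these genes.

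**Figure D1:**
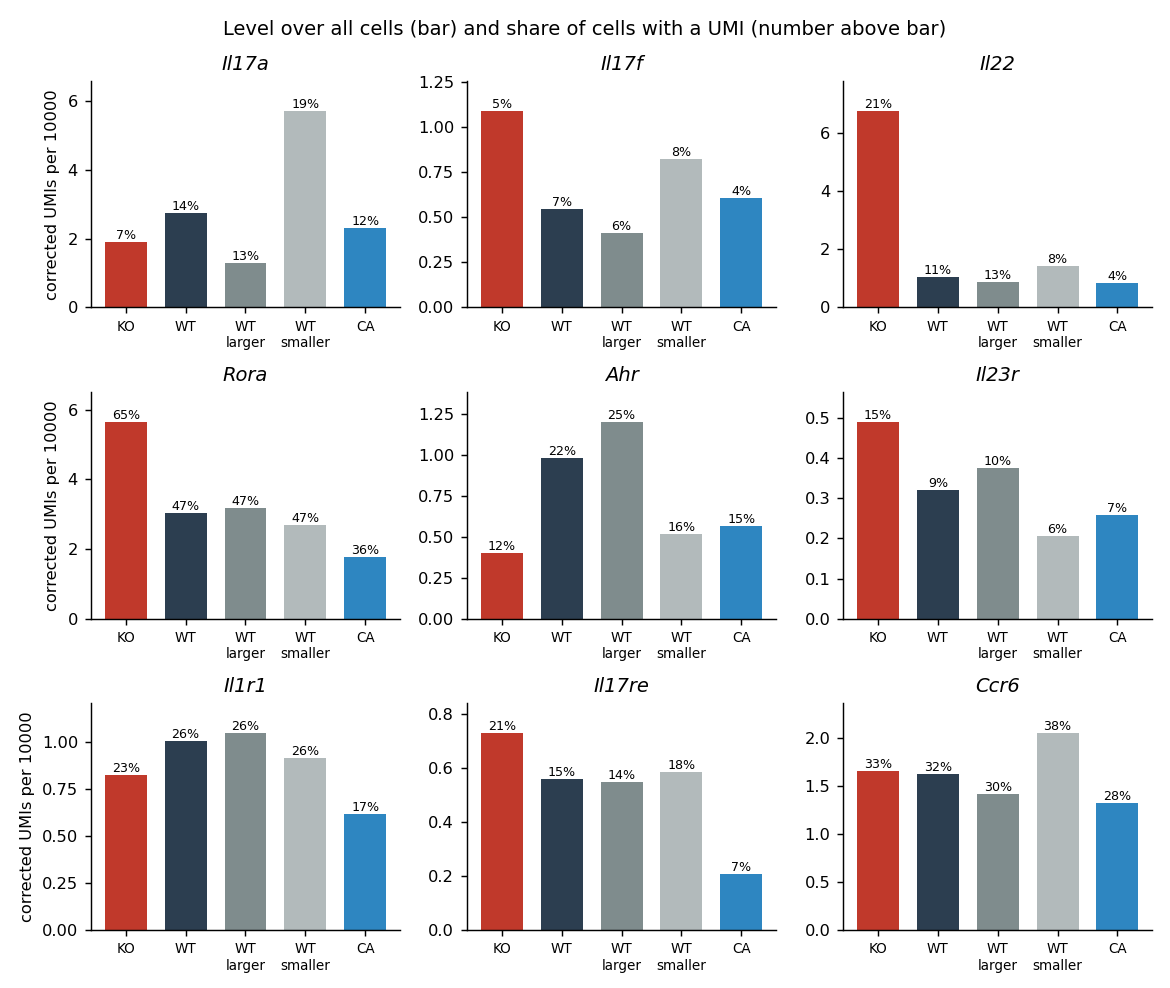
Level of each gene over all cells of a group, in corrected UMIs per 10000 (bars, from 0), with the share of cells with at least 1 UMI above each bar. Bars stand for TGFβR-KO, pooled TGFβR-WT, its larger and smaller set, and TGFβR-CA. *Il22* and *Rora* are highest in TGFβR-KO and *Il17re* and *Rora* lowest in TGFβR-CA, whereas *Il17a* is highest in the smaller TGFβR-WT set, at 5.73.

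*Il17a*, which encodes the cytokine that defines these cells, was at 1.90 in TGFβR-KO, 2.30 in TGFβR-CA, 1.29 in the larger and 5.73 in the smaller TGFβR-WT set. Both mutant conditions thus lay between the TGFβR-WT sets. The share of cells with an *Il17a* UMI was 7.13% in TGFβR-KO (6.23% to 8.11%), 12.0% in TGFβR-CA (10.2% to 14.1%), 12.6% in the larger set (10.2% to 15.2%) and 19.1% in the smaller set (14.8% to 24.1%). By share, TGFβR-KO was below both sets, at 0.492 times the pooled TGFβR-WT share. The lowest shares by cluster, taken here as the background that free RNA can give, were 1.25% in the CTL cluster of TGFβR-KO, 1.08% in the TR-TFH cluster of TGFβR-CA and 1.74% in that of TGFβR-WT.

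*Il17f*, the neighbouring cytokine gene, was at 1.09 in TGFβR-KO, 0.609 in TGFβR-CA, 0.411 in the larger and 0.824 in the smaller TGFβR-WT set. TGFβR-KO had the highest level, but at 1.32 times the smaller set it was not called. Its share of cells was 5.31% in TGFβR-KO and 6.55% in TGFβR-WT, so the order turned between level and share. The 10 cells with most *Il17f* held 46.7% of its UMIs in TGFβR-KO, 73.0% in TGFβR-CA and 49.8% in TGFβR-WT.

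*Il22*, whose product acts on epithelial cells, was at 6.76 in TGFβR-KO, 0.842 in TGFβR-CA, 0.858 in the larger and 1.43 in the smaller TGFβR-WT set. TGFβR-KO was higher than every other group, by 7.88 times the larger and 4.71 times the smaller TGFβR-WT set. The share of cells differed less than the level, with 20.9% (19.5% to 22.4%) in TGFβR-KO against 12.8% (10.5% to 15.5%) and 7.72% (4.96% to 11.4%) in the larger and smaller set, and it was 4.37% (3.24% to 5.75%) in TGFβR-CA. Cells with at least 10 *Il22* UMIs numbered 141 of 2975 in TGFβR-KO, 10 of 1098 in TGFβR-CA and 5 of 1007 in TGFβR-WT. The 10 highest cells held 23.8% of *Il22* UMIs in TGFβR-KO, where 623 cells had a UMI, 81.8% in TGFβR-CA, where 48 had one, 49.8% in the larger TGFβR-WT set (91 cells) and 92.5% in the smaller (23 cells). The TGFβR-KO ratio to the pooled TGFβR-WT cells was 6.44 without cells with a γδ T cell marker. Innate lymphoid cells, another source of IL-22, lack the TCRαβ for which the study sorted. Of 5 of their markers 3 are in the table, with a summed level of 0.355 in TGFβR-KO, 1.19 in TGFβR-CA and 0.354 to 1.38 in the TGFβR-WT sets. All 3 were above 0 in TGFβR-KO, and *Il1rl1* and *Klrg1* were at 0 in the other conditions. Their part in the *Il22* level was not tested.

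*Rora*, which encodes the nuclear receptor RORα, was at 5.66 in TGFβR-KO, 1.78 in TGFβR-CA, 3.19 in the larger and 2.70 in the smaller TGFβR-WT set. The single TGFβR-KO level lay above and the single TGFβR-CA level below both sets. *Rora* also follows the order of the sets given above. TGFβR-KO was at 1.77 times the larger set and TGFβR-CA at 0.659 times the smaller set, and a part of batch was not tested. The ratio to pooled TGFβR-WT was 1.87 in TGFβR-KO and 0.586 in TGFβR-CA. It was 1.38 in TGFβR-KO without the tumorigenic and CTL clusters 1.13 with each cluster given the same weight and 1.40 by shares of cells, so this call ended in each. Without the cell with the largest value the TGFβR-CA ratio was 0.593, and that call ended too. *Rora* UMIs were found in 65.4% of TGFβR-KO cells, 46.7% of TGFβR-WT cells and 35.7% of TGFβR-CA cells.

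*Ahr*, which encodes the receptor for aryl hydrocarbons that TH17 cells need for IL-22, was at 0.400 in TGFβR-KO, 0.568 in TGFβR-CA, 1.205 in the larger and 0.519 in the smaller TGFβR-WT set. TGFβR-KO was lowest, at 0.332 times the larger but 0.770 times the smaller set. Its share of cells was 11.7% (10.6% to 12.9%) in TGFβR-KO, 15.0% (13.0% to 17.3%) in TGFβR-CA, 25.0% (21.8% to 28.3%) in the larger and 16.1% (12.1% to 20.8%) in the smaller set. The intervals of TGFβR-CA and the smaller set overlapped, and they cover counting error only.

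Of the receptor genes, *Il17re* alone was called over all cells, as lower in TGFβR-CA. *Il17re*, a subunit of the receptor for IL-17C, was at 0.732 in TGFβR-KO, 0.205 in TGFβR-CA, 0.551 in the larger and 0.585 in the smaller TGFβR-WT set. TGFβR-CA was thus lower than both sets, at 0.365 times the pooled level, and its share of cells was 6.83% (5.41% to 8.49%) against 15.5% (13.3% to 17.9%). *Il23r*, the IL-23 receptor subunit, was at 0.491 in TGFβR-KO, 0.258 in TGFβR-CA, 0.375 in the larger set and 0.206 in the smaller. Its TGFβR-KO level was 1.54 times the pooled TGFβR-WT level but 1.31 times the larger set, and TGFβR-CA lay between the sets. *Il1r1*, the IL-1 receptor that carries the signal, was at 0.825 in TGFβR-KO, 0.616 in TGFβR-CA, 1.05 in the larger set and 0.915 in the smaller. TGFβR-CA was the lowest, at 0.613 times the pooled level and 0.673 times the smaller set, which just missed the limit.

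*Ccr6*, the receptor for CCL20 that brings TH17 cells to mucosal sites, was at 1.66 in TGFβR-KO, 1.33 in TGFβR-CA, 1.42 in the larger and 2.05 in the smaller TGFβR-WT set. TGFβR-KO lay between the sets. *Ccr6* UMIs were in 33.0%, 27.9% and 32.5% of TGFβR-KO, TGFβR-CA and TGFβR-WT cells.

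The authors' 8 clusters were called tumorigenic, CTL, GC-TFH, TR-TFH, cycling, migratory stem cell-like (migratory), activated and pretumorigenic. They were made from the expression of these same cells, so levels by cluster are a description. Clusters with under 20 cells of a condition were not compared, which left out the tumorigenic and CTL clusters of TGFβR-WT (5 and 13 cells) and TGFβR-CA (2 and 3 cells), and the 9 cycling TGFβR-CA cells.

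The cytokine genes were concentrated in few clusters. In TGFβR-KO, the tumorigenic and pretumorigenic clusters held 19.9% of cells and 86.3% of *Il22* UMIs, 75.2% of *Il17a* UMIs and 65.6% of *Il17f* UMIs. The same clusters held 8.34% of TGFβR-WT cells, with 42.4% of *Il22*, 49.5% of *Il17a* and 45.3% of *Il17f* UMIs. In TGFβR-CA they held 7.74% of cells, with 68.6%, 31.8% and 24.0% of these UMIs. The 5 tumorigenic TGFβR-WT cells held 26.5% of its *Il22* UMIs, all in 2 cells. In TGFβR-WT, the activated and pretumorigenic clusters held 19.5% of cells and 85.3% of *Il17a* UMIs, but 53.7% of *Il17f* and 25.2% of *Il22* UMIs. In TGFβR-CA the activated and pretumorigenic clusters held 19.4% of cells, 91.1% of *Il17a*, 66.7% of *Il17f* and 79.1% of *Il22* UMIs. The TFH clusters, which held 65.4% of TGFβR-WT and 74.6% of TGFβR-CA cells, gave 4.02% and 7.13% of *Il17a* UMIs.

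**Figure D2:**
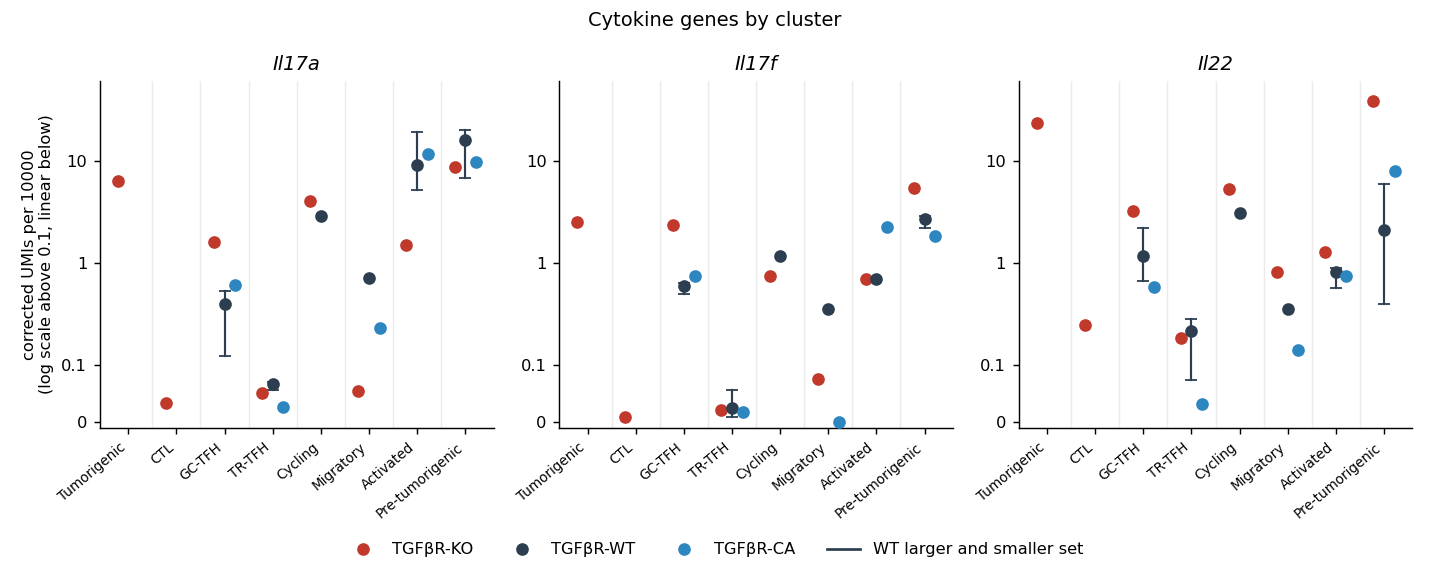
Levels of *Il17a*, *Il17f* and *Il22* by cluster, in corrected UMIs per 10000 on a scale that is logarithmic above 0.1 and linear below. Points are TGFβR-KO, pooled TGFβR-WT and TGFβR-CA groups of at least 20 cells, and lines join the larger and smaller TGFβR-WT sets where both have 20 cells. *Il22* of TGFβR-KO stands at 38.6 in pretumorigenic and 23.6 in tumorigenic cells, and *Il17a* of TGFβR-KO lies below both TGFβR-WT sets in activated cells.

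*Il17a* was highest in pretumorigenic cells in TGFβR-KO, at 8.61, and in TGFβR-WT, at 16.0, and in activated cells in TGFβR-CA, at 11.5. In activated cells it was at 1.504 in TGFβR-KO, 5.19 in the larger and 19.04 in the smaller TGFβR-WT set. TGFβR-KO was lower than both sets, and the share of activated cells with an *Il17a* UMI was 13.5% (9.96% to 17.8%) against 57.3% (47.8% to 66.4%) in TGFβR-WT and 59.2% (50.3% to 67.8%) in TGFβR-CA. The shares of the larger and smaller TGFβR-WT sets in this cluster were close, at 56.8% and 58.6%, although their levels differed. In migratory cells *Il17a* was also lower in TGFβR-KO, at 0.0549 (18 UMIs in 831 cells) against 0.710 (24 UMIs in 89 cells). It was called higher in TGFβR-KO in GC-TFH cells only, at 1.59 against 0.402, where the share of cells was similar (7.86%, 5.15% to 11.4%, against 6.53%, 3.52% to 10.9%). In TGFβR-CA it was lower in migratory cells (0.233 against 0.710), on 5 and 24 UMIs, a call that ended by shares of cells (0.978 times).

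*Il17f* was highest in pretumorigenic cells in TGFβR-KO, at 5.36, and in TGFβR-WT, at 2.66, and TGFβR-KO exceeded the larger set (2.20) and the smaller set (2.87). Its shares of these cells were 18.3% in TGFβR-KO and 16.5% in TGFβR-WT. In GC-TFH cells it was at 2.37 in TGFβR-KO and 0.589 in TGFβR-WT, and 1 TGFβR-KO cell held 172 of the 292 UMIs. In activated cells TGFβR-CA was 3.20 times higher than TGFβR-WT, at 2.24 against 0.697, with shares of 16.2% and 17.1%. Between these groups the *Il17f* level thus differed while the share of cells with a UMI was similar.

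*Il22* reached 38.6 in pretumorigenic cells of TGFβR-KO, where 52.6% of 230 cells had an *Il22* UMI (45.9% to 59.2%) and 27.0% had at least 10. In this cluster it was at 7.90 in TGFβR-CA, 5.93 in the larger and 0.396 in the smaller TGFβR-WT set. TGFβR-KO was higher than both sets, by 6.52 times the larger set, in which 1 cell held 37 of the 54 UMIs. The ratio to pooled TGFβR-WT was 18.3, and it was 44.8 without the cell with the largest value and 2.60 by shares of cells. In tumorigenic cells of TGFβR-KO it was at 23.6, in 33.5% of 361 cells (28.7% to 38.6%). TGFβR-KO was also called higher in cycling cells (5.33 against 3.05, though at 1.04 times by shares of cells) and migratory cells (0.820 against 0.355), where 20.8% of cells (18.1% to 23.7%) had a UMI against 7.87% (3.22% to 15.5%). In CTL cells of TGFβR-KO it was at 0.248, and in TR-TFH cells at 0.187, against 0.217 in TGFβR-WT and 0.0320 in TGFβR-CA, which was called lower on 7 UMIs. Without the tumorigenic and CTL clusters the TGFβR-KO to TGFβR-WT ratio was 6.36, close to the 6.46 over all cells. The paper's discussion gives the opposite direction for the transcript. It names *Il22* as lower in TGFβR-KO than in TGFβR-WT, and proposes a part for lower *Il22* in pretumorigenic TGFβR-KO cells. The same passage reports more IL-22 protein in duodenal tissue of TGFβR-KO than of TGFβR-WT mice, and infers a source other than TH17 cells. The cause of the disagreement over the transcript was not tested.

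**Figure D3:**
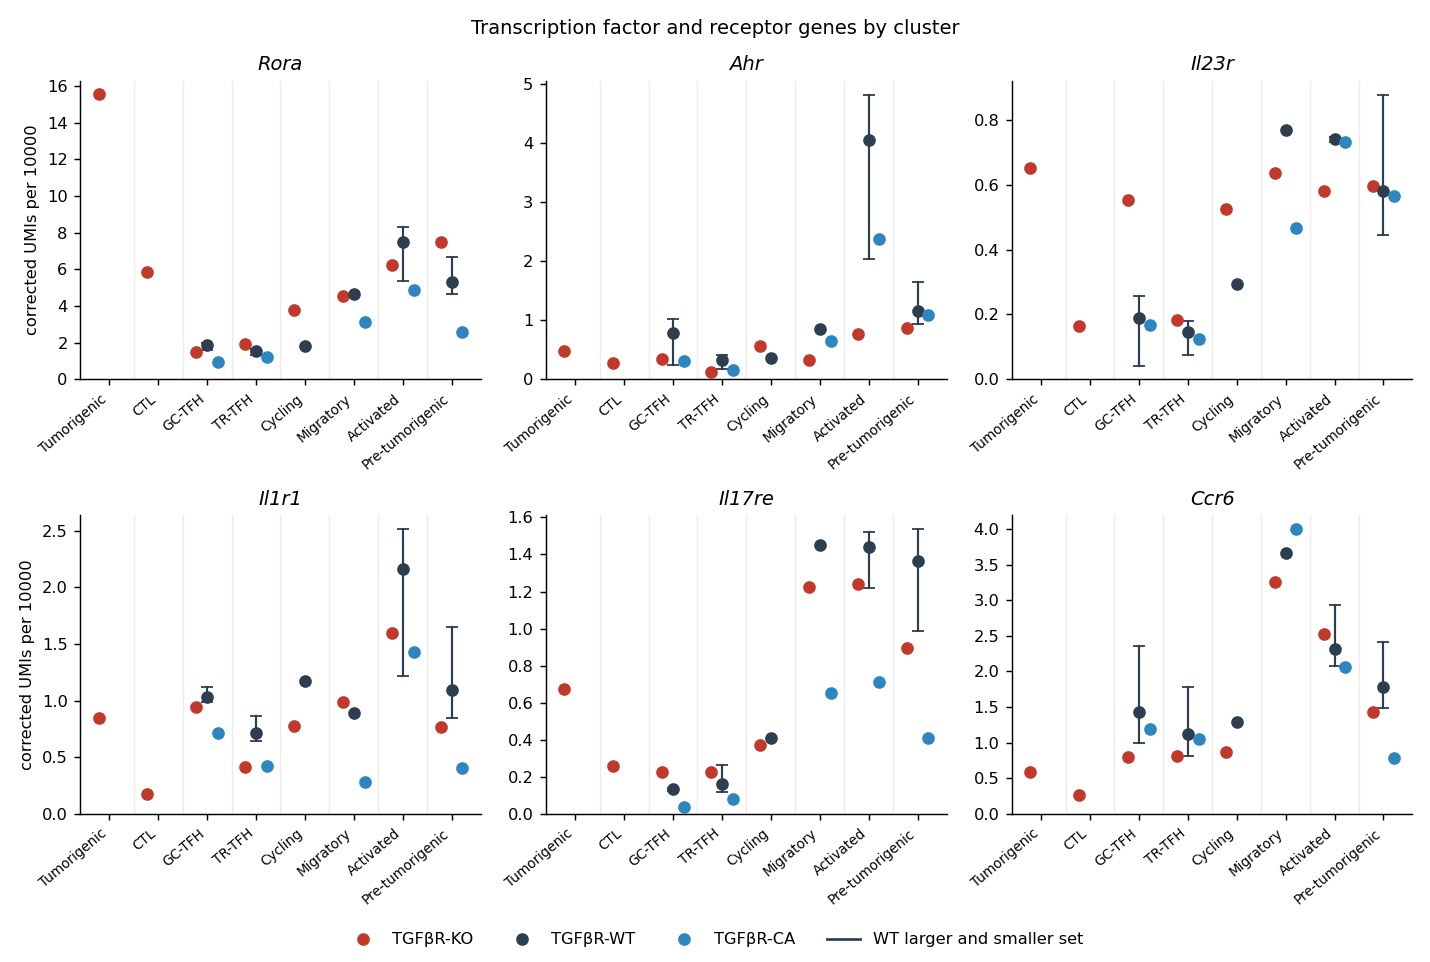
Levels of *Rora*, *Ahr*, *Il23r*, *Il1r1*, *Il17re* and *Ccr6* by cluster, in corrected UMIs per 10000 on linear axes from 0. Points are TGFβR-KO, pooled TGFβR-WT and TGFβR-CA groups of at least 20 cells, and lines join the larger and smaller TGFβR-WT sets where both have 20 cells. *Rora* peaks in tumorigenic TGFβR-KO cells at 15.5, *Ahr* in activated TGFβR-WT cells at 4.05 and *Ccr6* in migratory cells of every condition.

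*Rora* was highest in tumorigenic cells of TGFβR-KO, at 15.5, where 94.2% of 361 cells (91.2% to 96.4%) had a UMI and which held 33.8% of all *Rora* UMIs of TGFβR-KO. Pretumorigenic (7.51), activated (6.24) and CTL cells (5.84) followed, and GC-TFH cells were lowest (1.502). In the clusters present in both conditions, only cycling cells were called, at 3.78 in TGFβR-KO and 1.82 in TGFβR-WT. In TGFβR-CA, *Rora* was below TGFβR-WT in each of the 5 clusters compared, by ratios of 0.492 to 0.779, and was called lower in GC-TFH cells (0.933 against 1.85) and pretumorigenic cells (2.60 against 5.29).

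*Ahr* was highest in activated cells in TGFβR-WT, at 4.05, and in TGFβR-CA, at 2.39. In this cluster TGFβR-KO was at 0.760, the larger set at 4.82 and the smaller set at 2.03. TGFβR-KO was lower than both sets, by a ratio of 0.188 to the pooled cells, and its share of cells was 21.4% (17.0% to 26.3%) against 68.4% (59.1% to 76.7%). *Ahr* and *Il17a* were thus both lower in activated cells of TGFβR-KO, where 9.95% of 7048 genes were called lower. *Ahr* was also lower in migratory cells of TGFβR-KO (0.320 against 0.858), where 17.4% of 7405 genes were called lower against the pooled TGFβR-WT cells alone.

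*Il23r* was at 0.527 to 0.651 in 6 clusters of TGFβR-KO and lower in TR-TFH (0.182) and CTL cells (0.165), so that the highest cluster, tumorigenic cells, had 3.94 times the lowest. The highest cluster had 5.93 times the lowest in TGFβR-CA (activated against TR-TFH cells) and 5.31 times in TGFβR-WT (migratory against TR-TFH cells). It was called higher in TGFβR-KO in GC-TFH cells (0.552 against 0.187), in which 16.7% of cells had a UMI against 6.53%, and in cycling cells (0.527 against 0.294, which rests on 17 and 5 UMIs and was 1.44 times, no longer called, without shared barcodes). In activated cells the larger and smaller TGFβR-WT sets had 0.746 and 0.732, TGFβR-CA 0.733 and TGFβR-KO 0.580, none past the limit. In migratory cells TGFβR-CA was lower (0.466 against 0.769), on 10 and 26 UMIs.

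*Il1r1* was highest in activated cells of every condition, at 1.59 in TGFβR-KO, 1.43 in TGFβR-CA and 2.16 in TGFβR-WT. In TR-TFH cells it was lower in both TGFβR-KO (0.415) and TGFβR-CA (0.421) than in the larger (0.641) and smaller set (0.860). It was lower in TGFβR-CA also in migratory cells (0.279 against 0.887) and pretumorigenic cells (0.408 against 1.09), which rest on 6 and 13 UMIs in TGFβR-CA. In cycling cells it was lower in TGFβR-KO (0.775 against 1.17), a call that ended without shared barcodes (0.761 times).

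*Il17re* was highest in migratory and activated cells in every condition. In TGFβR-CA it was lower than in TGFβR-WT in migratory (0.652 against 1.45), activated (0.714 against 1.44) and pretumorigenic cells (0.408 against 1.37). Every cluster in which it could be compared had less *Il17re* in TGFβR-CA, and 6.75% of 5958 genes were called lower in activated cells. In TGFβR-KO it was called higher in GC-TFH cells only, at 0.227 against 0.134.

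*Ccr6* was highest in migratory cells in every condition, at 3.26 in TGFβR-KO, 4.01 in TGFβR-CA and 3.67 in pooled TGFβR-WT, whose larger set had 3.70. These cells held 56.2% of the *Ccr6* UMIs of TGFβR-KO. It was low in tumorigenic cells (0.581) and CTL cells (0.265) of TGFβR-KO, where *Rora* was high. No cluster was called in TGFβR-KO, and in TGFβR-CA only pretumorigenic cells were lower (0.784 against 1.78).

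**Figure D4:**
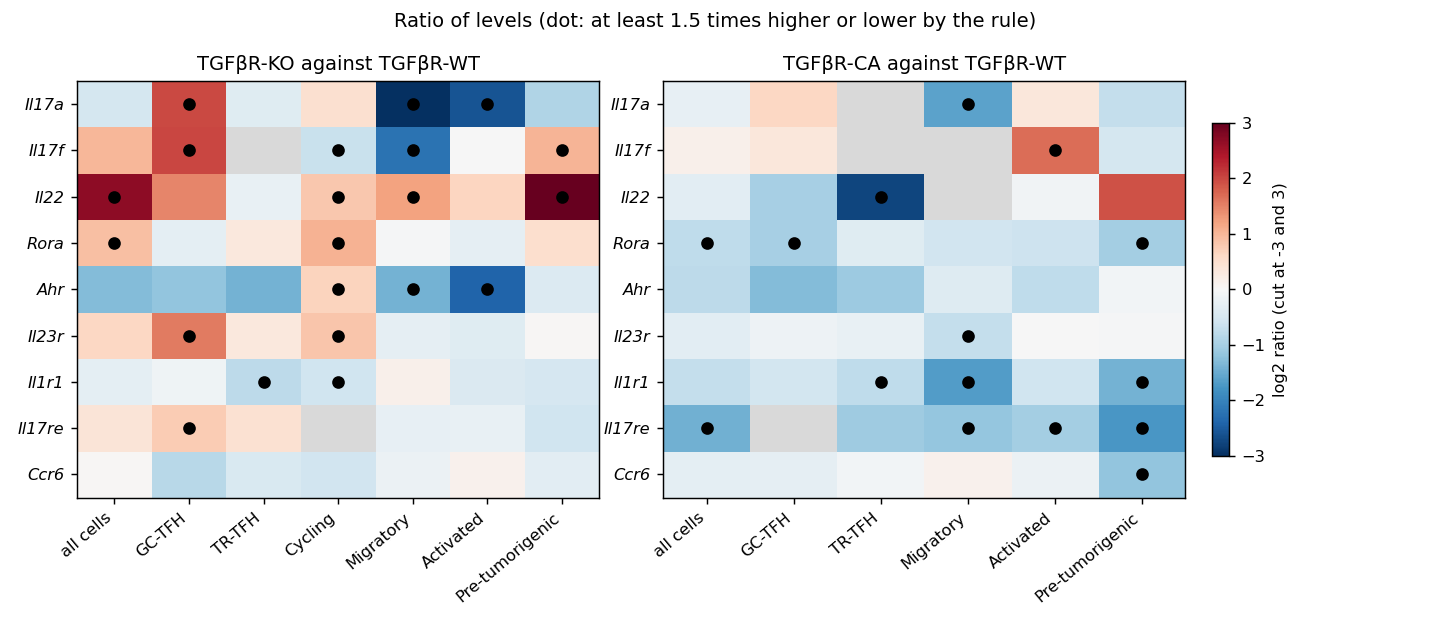
Log2 ratio of the level in TGFβR-KO (left) and TGFβR-CA (right) to pooled TGFβR-WT, over all cells and by cluster, with colours limited at both ends of the scale, grey where under 20 UMIs were found in both groups together and dots where a ratio was called. *Il17a* is called in opposite directions in GC-TFH cells and in migratory and activated cells of TGFβR-KO, and *Il17re* is lower in every TGFβR-CA cluster shown.

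Within clusters, 52 pairs of a gene and a cluster could be compared in TGFβR-KO, of which 11 were called higher and 8 lower than TGFβR-WT. In TGFβR-CA 1 of 40 was called higher and 12 lower. In GC-TFH cells of TGFβR-KO 4 of 9 genes were higher, where 2.88% of all genes were called higher and 5.96% lower. In pretumorigenic cells 2 were higher, against 2.81% of all genes (14.1% lower). In cycling cells 4 of 8 were higher and 2 lower, against 16.0% and 12.0% of all genes. In migratory cells 1 was higher and 3 lower, against 7.64% and 17.4%. In activated cells 2 were lower and none higher, against 9.95% and 2.23%, and in TR-TFH cells 1 of 8 was lower, against 8.17% (1.62% higher). In TGFβR-CA 4 of 9 were lower in pretumorigenic cells, against 10.2% of all genes (4.72% higher), and 4 of 7 in migratory cells, against 18.7% (8.96% higher). In its TR-TFH cells 2 of 7 were lower, against 4.24% (1.75% higher), in GC-TFH cells 1 of 8, against 4.91% (2.85% higher), and in activated cells 1 was lower and 1 higher, against 6.75% and 2.80%. The largest shares came from the cycling and migratory clusters, in which only the pooled TGFβR-WT cells were used because the smaller set had under 20 cells.

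A share of the cells had none of these genes. No UMI of any of the 9 was found in 16.0% of TGFβR-KO, 25.2% of TGFβR-WT and 37.9% of TGFβR-CA cells. At least 3 of them were found in 33.5%, 30.3% and 18.8%. In activated cells at least 3 genes were found in 82.1% of TGFβR-WT, 72.3% of TGFβR-CA and 53.5% of TGFβR-KO cells, and in pretumorigenic cells in 54.4%, 37.3% and 56.5%. Activated cells thus had the largest share in TGFβR-WT and TGFβR-CA, and pretumorigenic cells in TGFβR-KO. A UMI of *Il17a*, *Il17f* or *Il22* was found in 25.6% of TGFβR-KO, 24.3% of TGFβR-WT and 15.8% of TGFβR-CA cells. TGFβR-KO and TGFβR-WT were thus close in the share of cells with any of these cytokine genes.

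*Il17a* and *Il17f* were found together in more cells than the product of their shares gives. In TGFβR-KO 78 cells had both, against 11.3 by that product, in TGFβR-WT 34 against 9.57 and in TGFβR-CA 27 against 4.81. In tumorigenic cells of TGFβR-KO 23 cells had both against 5.23. Of the 51 *Il17a* cells in this cluster 39 (76.5%) also had *Il22*, and of the 37 *Il17f* cells 28 (75.7%) had it. In activated cells of TGFβR-WT the count for *Il17a* and *Il22* was close to the product, with 12 cells against 11.5.

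*Ifng*, the cytokine gene of TH1 cells, was found with these genes more often than by the product over all cells of TGFβR-WT and TGFβR-CA. For *Il17a* and *Ifng* the counts were 38 against 12.5 in TGFβR-WT and 40 against 6.97 in TGFβR-CA, and 73 against 55.4 in TGFβR-KO. In tumorigenic cells of TGFβR-KO the counts were below the product, with 20 cells against 30.7 for *Il17a*, 9 against 22.2 for *Il17f* and 49 against 72.7 for *Il22*. Cells with *Ifng* and cells with the TH17 cytokine genes thus overlapped less than the product of shares in this cluster. In activated cells of TGFβR-KO the count for *Il17a* was above it, with 23 against 16.0. These counts pool cells of 1 sample, depend on the UMIs found per cell, and were not tested.

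**Figure D5:**
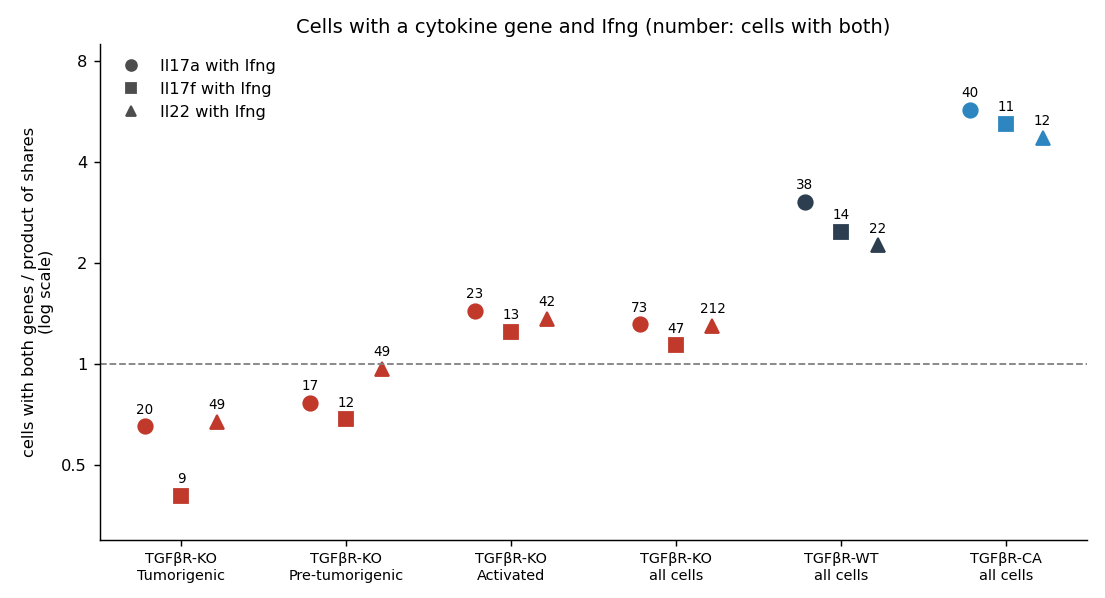
Number of cells with both *Ifng* and a cytokine gene, divided by the number the product of their shares gives (log axis), in clusters of TGFβR-KO and over all cells of each condition. Circles are *Il17a*, squares *Il17f* and triangles *Il22*, the number at each point is the count of cells with both, and the dashed line is a ratio of 1. In tumorigenic TGFβR-KO cells the ratios are 0.652, 0.405 and 0.674, and over all TGFβR-WT and TGFβR-CA cells all lie above 1.

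The patterns over groups were compared as Pearson correlations of log2(level + 0.1) over the 21 groups of at least 30 cells, made of a cluster in TGFβR-KO, TGFβR-CA or a TGFβR-WT set. These groups share libraries, so the values are a description. Among the 9 genes, *Il17a* and *Il17f* were the most alike (r = 0.90), followed by *Il23r* and *Il17re* (0.79), *Rora* and *Il17re* (0.77) and *Il17f* and *Il22* (0.77). *Ccr6* had a correlation near 0 with *Il17a* (-0.0023) and *Il17f* (-0.056) and of -0.20 with *Il22*. Among the 7490 genes with the other identity genes left out, the pattern most like that of *Il17a* was that of *Ctla4* (0.91), an inhibitory receptor, followed by *Ppp1r14c* (0.87) and *Sfr1* (0.86). *Il17f*, whose pattern was more like that of *Il17a* than that of any other gene, came next closest to *Cd69* (0.87), a marker of recent activation, with *D8Ertd738e* (0.86) and *Ctla4* (0.83). *Il22* was closest to *Snhg12* (0.87), to *Nfkbia* (0.86), which encodes the NF-κB inhibitor IκBα, and to *Nr4a1* (0.84), an early gene of T cell receptor signalling.

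For *Rora* the closest were *Cytip* (0.96), *D16Ertd472e* (0.94) and *Gcnt2* (0.93), and for *Ahr* they were *Ablim3* (0.87), *Cap2* (0.86) and *Gatad2a* (0.83). *Il23r* was closest to *Il2ra* (0.88), the high-affinity IL-2 receptor subunit, *Rexo2* (0.87) and *Tmem64* (0.85). *Il17re* was closest to *Serpinb1a* (0.94), *Tmem176b* (0.93) and the leukotriene B4 receptor gene *Ltb4r1* (0.93), of which the last 2 are among the listed TH17 program genes. *Ccr6* was closest to the chemokine receptor gene *Ccr4* (0.81), *Cst3* (0.77) and *Plcb4* (0.76). *Il1r1* had the weakest match, with *Atf6* (0.77), *Ppme1* (0.75) and *Dynlrb1* (0.75). Some of these lists changed with rank (Spearman) correlation. None of the 3 genes named for *Rora* stayed among its 3 closest. Only *Nr4a1* stayed for *Il22*, *Ppme1* for *Il1r1* and *Cst3* for *Ccr6*, whereas all 3 stayed for *Il17a* and *Il17re*.

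Of 30 other genes of the TH17 program listed for comparison, 28 are in the table and 23 passed the minimum of 200 UMIs. In TGFβR-KO 3 of the 23 were called higher and 6 lower, and in TGFβR-CA 1 was higher and 3 lower. Of all genes, 2.94% were called higher and 5.45% lower in TGFβR-KO, and 1.23% higher and 2.90% lower in TGFβR-CA. Their median log2 ratio was 0.00 in TGFβR-KO and -0.24 in TGFβR-CA. Among regulators, *Maf* was lower in TGFβR-KO (12.7 against 22.9), as was *Ikzf3* (0.862 against 1.81), and *Nfkbiz*, which acts with NF-κB in TH17 cells, was higher (1.72 against 0.591). *Il21* (0.428 against 1.06) and the IL-6 receptor genes *Il6ra* (0.132 against 0.581) and *Il6st* (0.340 against 0.898) were lower in TGFβR-KO. *Ccl20*, whose product is the ligand of CCR6, was at 0.0801 in TGFβR-KO and 0.798 in TGFβR-WT.

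The kinase gene *Sgk1* was higher in TGFβR-KO (0.409 against 0.129) and lower in TGFβR-CA (0.0388). *Csf2*, which encodes GM-CSF, had 471 UMIs in 174 cells of TGFβR-KO, 2 in TGFβR-CA and 1 in TGFβR-WT. In TGFβR-CA *Hif1a* was higher (1.33 against 0.675) and *Tmem176a* (2.02 against 3.56) and *Tmem176b* (1.93 against 3.40) were lower. *Il22* and *Nfkbiz* were thus higher in TGFβR-KO while the genes for the ligand of CCR6, for IL-21 and for the IL-6 receptor were lower. *Il17re* and *Tmem176b* were both lower in TGFβR-CA, and the TGFβR-CA groups also enter the correlation of their patterns.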

How the data were processed

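Droplet single-cell RNA sequencing (10x Genomics, 3′ chemistry) was performed on 4 samples of sorted cells. Per the labels, UMIs were counted with Cell Ranger 3.1.0 on mm10 and processed in Seurat. The authors kept cells by number of genes and mitochondrial share, removed γδ T and epithelial cells, normalized with SCTransform, and integrated and clustered the cells. Doublet removal is not given in the sources used here, and none was done. The authors deposited corrected UMIs as natural log values, after adding 1, with the cluster of each cell. Exponentiation gave whole numbers for each of the 7880276 nonzero entries (tolerance 1e-06). SCTransform evens out depth between cells, so raw depth is unknown, no count model was used, and totals per cell lay between 2955 and 5110.

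Cells whose names begin with R were taken as TGFβR-KO, whose sample is titled RKO. No column was left without a condition. Members and gene lists were chosen with earlier results of these data known. Genes named are the 9 members, the listed TH17 program genes that were called, the 3 genes most like each member, and *Ifng*. The targeted genes, listed cell type markers and antisense genes that overlap members are named as checks. The level of 1 listed program gene is not reported here. Genes with at least 200 corrected UMIs were compared, and within clusters at least 20 cells and 20 UMIs were required. For calls, a sum below 3 UMIs in a group was raised to 3. Motifs were searched in RefSeq windows. Scripts used Python 3.11.15, numpy 2.4.6, pandas 2.3.3, scipy 1.17.1 and matplotlib 3.10.9. On simulated data for TGFβR-KO against TGFβR-WT over 7490 genes, the rule called all 200 changed genes and 8 others. These counts depend on the size of the planted changes and on the spread given to cells and sets. In the measured cells, 10.3% of genes were higher and 11.8% lower in the smaller than in the larger TGFβR-WT set, at the ratio used for calls. The simulated counts are therefore not rates of missed or false calls for the measured cells. Alternatives covered the TGFβR-WT set, cells left out, the measure, the limits and the weighting of clusters, and 2 within clusters were chosen after seeing the data. Whether the 2 TGFβR-WT sets are separate mice is not given in the sources used here.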

Additional observations from a re-analysis of the deposited data

Results flagged for a closer look

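Within TGFβR-KO, 3 genes were called in opposite directions against TGFβR-WT in different clusters, and these differences between clusters were not tested. *Il17a* was 3.96 times the TGFβR-WT level in GC-TFH cells, 0.0773 times in migratory cells and 0.167 times in activated cells. The GC-TFH value was 1.203 by shares of cells, and the activated value 0.236. *Il17f* was 4.02 times the TGFβR-WT level in GC-TFH cells and 2.01 times in pretumorigenic cells, against 0.633 times in cycling and 0.215 times in migratory cells. By shares of cells the GC-TFH ratio was 0.963. *Ahr* was 1.58 times the TGFβR-WT level in cycling cells, which rests on 18 and 6 UMIs, and 0.373 times in migratory and 0.188 times in activated cells. Leaving out the cell with the largest value in each set gave a ratio of 0.9499 for *Il17f* in cycling cells, ending that call, and 0.190 for *Ahr* in activated cells.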

How the results depend on the processing

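Samples without replicates, TGFβR-WT cells not tied to a sample, and unknown raw depth limit these results. No paired analysis was possible because only 1 sample was listed for TGFβR-KO and for TGFβR-CA, the cells carry no replicate number, and no test was run. The number of the 9 genes called higher in TGFβR-KO was 1 without the tumorigenic and CTL clusters, in place of 2. By shares of cells it stayed at 2, with *Il23r* in place of *Rora*. The number called lower there was 1 in place of 0 with the larger TGFβR-WT set alone (*Ahr*), the smaller set alone (*Il17a*) or shares of cells (*Il17a*). In TGFβR-CA 1 gene (*Il17a*, 1.78 times) was higher with the larger set alone, in place of 0. The number lower there, 2, was 4 with the larger set or shares of cells, 5 with the smaller set, and 1 without the cell with the largest value or with equal weight to each cluster. Genes called over the table numbered 220 higher and 408 lower in TGFβR-KO and 92 and 217 in TGFβR-CA. With no minimum of 200 UMIs they were 355, 1274, 321 and 661, and with a ratio of 2 they were 106, 121, 24 and 53.

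Of single values, by shares of cells *Il17f* in TGFβR-CA turned to 0.556 times TGFβR-WT. With equal weight to each cluster *Il22* in TGFβR-CA went from 0.805 to 2.02 times TGFβR-WT, not called in either. With the smaller set alone, *Il22* in TR-TFH cells of TGFβR-KO turned to 2.50, *Il23r* in TR-TFH cells of TGFβR-CA to 1.65 and *Il17a* in activated cells of TGFβR-CA to 0.604. Shares of cells within clusters and leaving out the largest cell within clusters were chosen after seeing the data. By shares, the ratio turned to 0.963 for *Il17f* in GC-TFH and 0.519 for *Il17a* in cycling cells of TGFβR-KO, and in TGFβR-CA to 0.524 for *Il17a* and 0.582 for *Il17f* in GC-TFH cells and 0.945 for *Il17f* in activated cells. *Il22* in TGFβR-KO kept its call over all cells under each alternative, with ratios of 1.85 by shares of cells to 8.63 without the largest cell, as did *Il17re* in TGFβR-CA (0.351 to 0.441). *Rora* in TGFβR-CA was no longer called without the largest cell (0.593), by shares (0.765), with equal weight (0.610) or without the tumorigenic and CTL clusters (0.604). The cause was not tested. Of 162 values of a ratio over all cells under an alternative, 126 kept direction and call, 17 gained a call, 7 lost it, 2 turned as above and 10 crossed 1 with no call before or after. Within clusters 326 of 436 kept both, 52 gained a call, 15 lost it, 8 turned and 35 crossed 1 uncalled. Of the 15 calls lost, 11 were lost by shares of cells, 2 without the largest cell and 2 without shared barcodes.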
